A study of Mus musculus with 9 samples.

Results

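Dmkn, Tctex1d1 and Tmem215 are 3 of the 14940 genes in a table of RNA levels in LSK cells of mouse bone marrow. LSK cells lack lineage antigens, carry Sca1 and cKit, and include the blood-forming stem cells and multipotent progenitors. They were chosen by their values: near 0 in libraries of naive mice and present in all 6 libraries of immunized mice. The difference between naive and immunized mice is therefore a description of how they were chosen and carries no test. The mice were of the C57BL/6 strain, and each of 3 groups gave 3 libraries. The first group was naive. The second had been immunized 3 days earlier for experimental autoimmune encephalomyelitis (EAE), by complete Freund's adjuvant together with the myelin peptide MOG35-55. The third, called treated below, was immunized in the same way and received the β3-adrenergic receptor antagonist SR59230A for 3 days. All 6 immunized mice received adjuvant and peptide together, and the labels name no group with adjuvant alone and no vehicle for the mice without SR59230A. The labels count 3 mice in each group and name no genotype beyond the strain and no age.

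The values are whole numbers that the authors had adjusted and are not read counts, so depth and counting error are unknown. Each value below was divided by a factor for its library (0.9005 to 1.107, median of ratios) and is called a scaled value. Deposited values summed to between 8641735 and 10387955 per library. Kit, which encodes the cKit receptor of the gate, averaged 6876 in naive, 5116 in EAE and 5049 in treated libraries, and Ly6a, which encodes Sca1, averaged 1531, 2099 and 2433. Of 11 genes of mature lineages, 7 were in the table and 5 were tested. Of these 5, 1 was called higher in EAE than in naive mice by limma-trend, a call made for 9.04% of all tested genes. It was Itgam, which encodes CD11b, a myeloid lineage antigen (669 in naive, 1315 in EAE and 1322 in treated libraries). EAE replicate 2 stood apart on component 3 of all tested genes (13.2% of the variance), with a score of 36.0 against -22.6 to 5.59 for the other libraries. EAE replicate 3 stood apart on component 4 (10.2% of the variance), with 30.3 against -16.7 to 10.3. EAE replicate 1 carries a barcode number apart from those of the other 8 libraries, which follow one another, and the labels do not say whether it was prepared with them. It was the lowest EAE library for each of the 3 genes.

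Immunization with mycobacterial adjuvant is known to drive emergency myelopoiesis, in which stem and progenitor cells turn towards granulocytes and monocytes. None of the 3 genes is a usual marker of that change. Dmkn encodes dermokine, a secreted protein known from the upper layers of the epidermis, where its gene lies beside those for suprabasin (Sbsn) and keratinocyte differentiation-associated protein (Krtdap). Tctex1d1 encodes a protein with a Tctex1 domain, the fold of one family of light chains of the dynein motor. Tmem215 encodes a membrane protein that has been described in endothelial cells.

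The start regions of the genes are shown because they let the members be compared in something their choice did not use. RefSeq (GRCm38.p6) gave 6 windows for the 3 genes, each from 250 bases before a transcription start to 50 bases after it, among 32851 windows of 27025 genes. Of the 4 printed here, all on the plus strand, 2 belong to Dmkn, at an upstream and a downstream start, and 1 each to Tctex1d1 and to the first start of Tmem215. Capitals mark matches to the motifs named below other than the E-box.
Dmkn, upstream start, chr7:30763506-30763805: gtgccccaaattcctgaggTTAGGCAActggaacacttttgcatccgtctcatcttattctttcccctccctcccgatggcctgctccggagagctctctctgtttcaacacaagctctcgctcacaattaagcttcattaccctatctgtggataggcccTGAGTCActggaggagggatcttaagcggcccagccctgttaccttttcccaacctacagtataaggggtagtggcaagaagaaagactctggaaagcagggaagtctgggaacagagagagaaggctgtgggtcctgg
Dmkn, downstream start, chr7:30776155-30776454: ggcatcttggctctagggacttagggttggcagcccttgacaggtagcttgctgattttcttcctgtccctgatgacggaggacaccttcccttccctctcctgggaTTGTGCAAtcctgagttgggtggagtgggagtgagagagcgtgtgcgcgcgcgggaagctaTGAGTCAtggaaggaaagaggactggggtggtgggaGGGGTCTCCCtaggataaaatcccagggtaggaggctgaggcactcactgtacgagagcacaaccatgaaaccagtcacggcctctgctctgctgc
Tctex1d1, chr4:102978453-102978752: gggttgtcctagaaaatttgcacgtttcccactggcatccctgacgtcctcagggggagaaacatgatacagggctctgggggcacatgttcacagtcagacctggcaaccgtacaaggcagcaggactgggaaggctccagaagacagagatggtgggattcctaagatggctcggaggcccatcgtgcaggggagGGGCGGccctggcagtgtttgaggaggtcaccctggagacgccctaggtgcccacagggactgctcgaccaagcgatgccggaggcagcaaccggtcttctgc
Tmem215, first start, chr4:40471930-40472229: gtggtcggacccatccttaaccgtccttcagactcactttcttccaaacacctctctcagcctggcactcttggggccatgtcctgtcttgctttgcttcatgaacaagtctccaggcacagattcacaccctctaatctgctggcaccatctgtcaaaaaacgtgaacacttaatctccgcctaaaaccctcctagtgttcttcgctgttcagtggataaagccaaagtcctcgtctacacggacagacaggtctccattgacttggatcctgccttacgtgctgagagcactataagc

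No motif other than the E-box (CANNTG, in 72.3% of all windows) was found in all 3 genes. Both Dmkn starts held a C/EBP motif (TTGCNNAA, in 10.8% of windows), the sequence bound by the C/EBP factors of granulocyte and monocyte development, at -231 and -143 bases from the start. Both also held an AP-1 motif (TGANTCA, in 7.81% of windows), at -89 and -82. The downstream start of Dmkn held an NF-kB motif in addition (in 20.7% of windows), at -46. The window of Tctex1d1 held a GC box (GGGCGG, in 35.7% of windows) at -53. The windows of Tmem215 held none of these. For 6 further motifs no match was found in any window of the 3 genes. These were PU.1/ETS (GAGGAA, in 28.3% of windows), STAT (TTCNNNGAA, in 8.30%), IRF (in 3.44%), CRE (TGACGTCA, in 1.79%), RUNX (TGTGGT, in 16.8%) and the motif named for its letters TATAAA (in 13.6%). In all, 11 motifs were searched on both strands, and each count of windows is for the motif alone, whatever it overlaps. A match is a run of letters and no evidence of binding. The GC content was 52.0% and 57.3% for the printed Dmkn windows, 60.3% for Tctex1d1 and 50% for Tmem215, beside a median of 52.7% over all windows.

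In naive mice Dmkn had scaled values of 1.01, 1.90 and 0.939, against 71.3, 174 and 106 in EAE mice and 94.6, 83.6 and 131 in treated mice. These correspond to deposited values of 1, 2 and 1 in naive mice. All 6 immunized libraries lay above all 3 naive ones, as the choice of the gene required, and the EAE and treated values overlapped. The means were 1.28 ± 0.532 in naive, 117 ± 52.2 in EAE and 103 ± 24.8 in treated libraries (SD, n = 3 each). The lowest immunized value was 37.6 times the highest naive one. Among the immunized libraries the highest value, in EAE replicate 2, was 2.44 times the lowest, in EAE replicate 1. Without EAE replicate 1 the lowest immunized value was 44.1 times the highest naive one; the lowest immunized values of the other members were in treated replicate 2.

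Tctex1d1 had a deposited value of 1 in every naive library (scaled 1.01, 0.948 and 0.939). It had scaled values of 58.7, 78.8 and 134 in EAE and 40.7, 37.7 and 67.7 in treated libraries. The highest immunized value was EAE replicate 3 and the lowest was treated replicate 2, a span of 3.57 times, the widest of the 3 genes. Treated replicate 3 lay above EAE replicate 1, so the EAE and treated groups overlapped. The means were 0.967 ± 0.0408, 90.6 ± 39.2 and 48.7 ± 16.5 (SD, n = 3 each), and the lowest immunized value was 37.2 times the highest naive one. In the GENCODE M21 annotation the gene overlaps Gm12709 and BB031773 on the opposite strand. The sources used here do not say whether the authors' counting used strand. RNA from these genes and from Tctex1d1 therefore cannot be told apart.

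Tmem215 was low but above the other 2 genes in naive mice, with scaled values of 5.07, 13.3 and 5.63 and the highest in naive replicate 2. It had 128, 254 and 155 in EAE and 124, 115 and 150 in treated libraries. EAE replicate 2 was the highest, as for Dmkn, and the span over the 6 immunized libraries was 2.20 times, the narrowest of the 3 genes. The means were 7.99 ± 4.58 in naive, 179 ± 66.1 in EAE and 130 ± 18.1 in treated libraries (SD, n = 3 each). The lowest immunized value was 8.68 times the highest naive one. Separation of all 6 immunized from all 3 naive libraries is common in this table: 17.6% of the tested genes had all 6 above and 13.6% all 6 below. Nothing is read from it for the members.

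**Figure D1:**
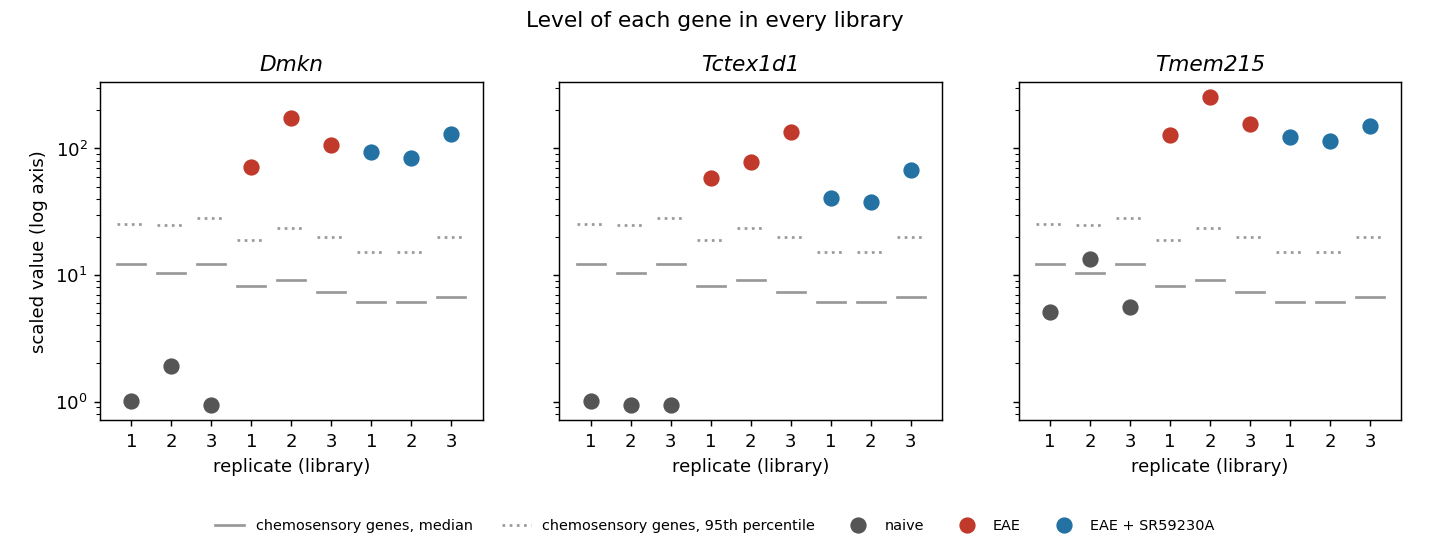
Scaled values of Dmkn, Tctex1d1 and Tmem215 in each library, on a log axis, with 1 point per library; solid and dotted grey lines are the median and 95th percentile of the 1104 chemosensory genes described in the text. Naive libraries lie at 0.939 to 1.90 for Dmkn, 0.939 to 1.01 for Tctex1d1 and 5.07 to 13.3 for Tmem215, and immunized ones between 37.7 and 254.

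What a value near 0 is in this table can be read from 1104 chemosensory receptor genes, which blood progenitors are not known to use. Their median scaled value was 10.4 to 12.2 in naive, 7.30 to 9.21 in EAE and 6.10 to 6.66 in treated libraries, so this floor was itself higher in the naive libraries. In naive libraries 98% to 100% of these genes lay above Dmkn and 99.1% to 100% lay above Tctex1d1. For Tmem215 the share was 33.7% to 91.0%, so its naive values fell within the range of genes that these cells are not known to express. In the immunized libraries at most 0.272% of the chemosensory genes lay above any of the 3. Expressed per kilobase of exon, over 14132 genes with a known length, Dmkn moved from percentiles 1.14 to 3.68 in naive libraries to percentiles 45.2 to 62.1 in immunized ones. Tctex1d1 moved from percentiles 0.785 to 1.37 to percentiles 33.6 to 50.8, and Tmem215 from 3.98 to 12.6 to 41.0 to 54.4. Dmkn was therefore near the middle of the table in immunized mice on the scale per length, and Tctex1d1 and Tmem215 were mostly below it. None of the 3 was among its abundant transcripts. The scale assumes values proportional to length, which is unknown for these adjusted values.

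To see how rare the pattern is, all 14940 genes were searched for a naive mean under 20 and a lowest immunized value at least 5 times the highest naive value, with naive values below 1 set to 1. This found 16 genes, 0.107% of the table and 0.411% of the 3894 genes with a naive mean under 20. The 3 members are among them because a like measure chose them, so their presence and rank are a description. The mirror rule found 1 gene, Gria2, a glutamate receptor subunit, with means of 213 ± 28.9 in naive, 12.1 ± 1.57 in EAE and 17.1 ± 2.09 in treated libraries (SD, n = 3 each), which is 0.00669% of the table. Dmkn and Tctex1d1 had the 2 highest ratios of the 16 genes, and these rest on deposited naive values of 1 or 2. Tmem215 was the sixth, after Ms4a3 (24.4), a marker of granulocyte-monocyte progenitors, Clec5a (12.8), a myeloid lectin receptor, and Kcnq3 (9.03), a potassium channel subunit. Below Tmem215 came C4b (7.94), a complement component, Ccl2 (6.15), a monocyte chemokine, Trem3 (5.58), a myeloid receptor, Slc22a4 (5.34), an organic cation transporter, Gm14005 (5.32), Spsb1 (5.29), F7 (5.09), coagulation factor VII, Slc36a2 (5.09), an amino acid transporter, Ednrb (5.03), an endothelin receptor, and Homer2 (5.01), a scaffold protein. Just outside were Cd14 and Mmp19, both at 4.81. F7 and Slc36a2 were listed at 0 in every naive library and were too low to be tested.

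The 16 genes differed in level as well as in ratio. Ms4a3 had a mean of 18.6 in naive, 762 in EAE and 603 in treated libraries, and Clec5a had 6.09, 175 and 121. C4b had 2.25, 34.0 and 33.5, and Kcnq3 had 0.313, 10.6 and 13.2. A low naive value alone did not go with a high immunized one: of 50 genes with all 3 naive values under 2, 36 stayed under 10 in all 6 immunized libraries. Dmkn and Tctex1d1, which were chosen for this pattern, were the 2 that were at 10 or more in all 6, and both were also at 30 or more in all 6. In the other direction, 6 genes had all immunized values under 2, and 0 of them were at 10 or more in all naive libraries. That count asks for low values in 6 libraries and the first in 3, so the 2 counts cannot be compared. With a ratio of 3 the search found 31 genes, and with a ratio of 10 it found 4, without Tmem215.

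**Figure D2:**
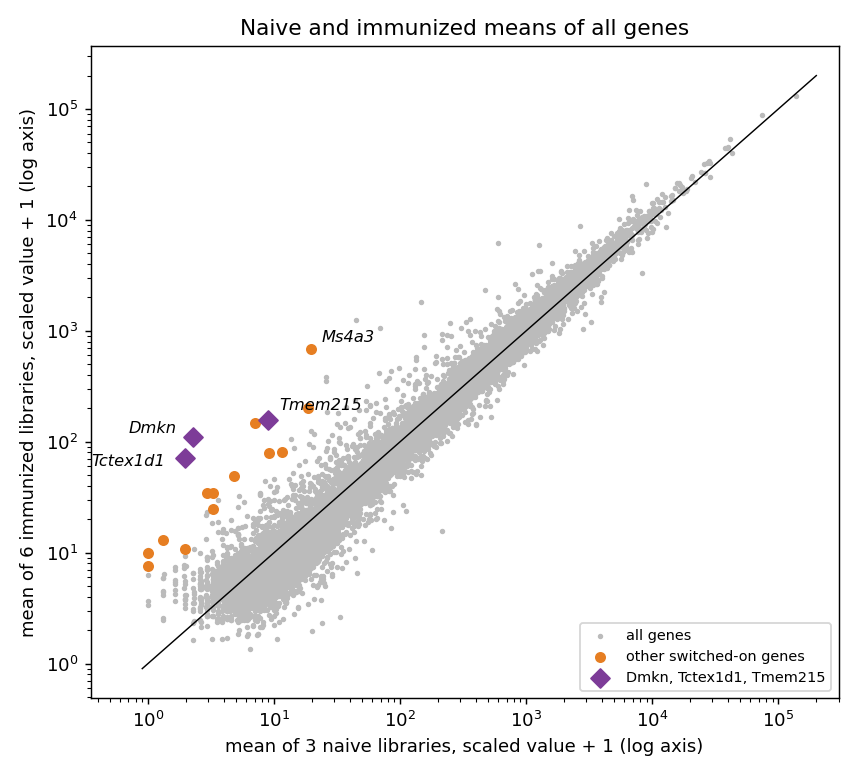
Mean scaled value + 1 over the 6 immunized libraries against that over the 3 naive libraries, both on log axes, for all 14940 genes (grey). The line marks equal means; diamonds are Dmkn, Tctex1d1 and Tmem215 and orange points the other 13 switched-on genes, which all lie above the line.

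Treated and EAE mice were compared to ask whether blocking β3-adrenergic receptors altered the levels reached after immunization, a contrast that the choice of the genes did not use. The groups overlapped for all 3 genes, whereas 8.46% of tested genes had all treated values above and 7.71% had all below the EAE values. No difference was called for any of the 3. On the log2(scaled value + 1) scale, Dmkn differed by -0.12 ± 0.36 (SE; 95% interval -0.91 to 0.68; adjusted p = 0.999, limma-trend). Tmem215 differed by -0.41 ± 0.34 (95% interval -1.15 to 0.33; adjusted p = 0.999, limma-trend). Tctex1d1 had the largest difference, -0.85 ± 0.39, with an interval from -1.71 to 0.01, an unadjusted p of 0.0531 and an adjusted p of 0.999 (limma-trend), and the ratio of its means was 0.537. Over all 13018 genes tested, 1 (0.00768%) was called in this comparison, and 496 had an unadjusted p under 0.05. The intervals do not show that the groups were alike: for Tctex1d1 the interval reaches a difference of -1.71. The direction for Dmkn depended on single libraries. Without EAE replicate 2 the difference was 0.21, and without treated replicate 2 it was 0.02. Without EAE replicate 2 it was -0.90 for Tctex1d1 and -0.13 for Tmem215. Without EAE replicate 1 the differences were -0.42 for Dmkn, -1.11 for Tctex1d1 and -0.62 for Tmem215, with 0 of the 3 called (adjusted p from 0.796, limma-trend). Tctex1d1 stayed between -1.11 and -0.52 and Tmem215 between -0.62 and -0.13 when each library was left out in turn.

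Of the 14 switched-on genes that could be tested, 11 had a lower and 3 a higher fitted level in treated than in EAE libraries, and 0 were called by limma-trend. Their median difference was -0.27, beside 0.01 over all genes tested, of which 47.6% were lower. The differences ran from -0.89 for Ednrb to 0.29 for Kcnq3, and the lowest unadjusted p was 0.0506, for Ms4a3 (difference -0.33). Ednrb, 1 of the 11 lower genes, passed the filter of 10 in 3 libraries only through the EAE group. Its deposited values were 11, 12 and 16 there, and 9, 5 and 5 in treated libraries. The filter itself favoured its lower level in treated libraries, so nothing is read from its difference, which enters the count and the median. Tctex1d1 was the third lowest of the 14. Some directions depended on single libraries or on the scaling: those of C4b, Ccl2, Gm14005 and Spsb1 reversed under at least 1 alternative, as did that of Dmkn.

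**Figure D3:**
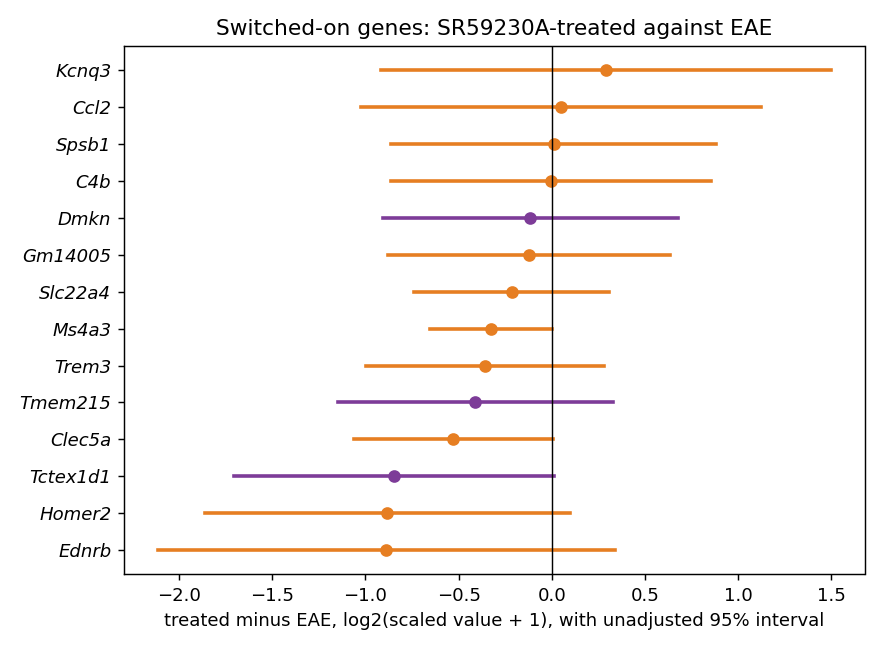
Difference between treated and EAE libraries on the log2(scaled value + 1) scale for the 14 tested switched-on genes, with 95% intervals from limma-trend. Dmkn (-0.12), Tmem215 (-0.41) and Tctex1d1 (-0.85) are marked, and the vertical line is at 0. Ednrb passed the filter only through the EAE libraries.

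Co-variation was examined over the 6 immunized libraries alone, since over all 9 the step that chose the genes would enter it. The permutation tests take these 6 libraries as exchangeable. They come from 2 groups and share the authors' adjustment, so the p-values may be too small. Dmkn and Tmem215 had Pearson r = 0.89 on the log2 scale (exact permutation p = 0.0153, adjusted over 3 pairs 0.0458). Their Spearman rho was 0.77 (exact permutation p = 0.103, adjusted 0.154), so only the Pearson value passed the threshold. Without the 2 libraries farthest from the median of Dmkn, r was 0.84. Without EAE replicate 2 r was 0.72, and with the other libraries left out in turn it reached 0.945, without EAE replicate 1; no 5-library value passed the adjusted threshold, the smallest adjusted p being 0.05. With no scaling r was 0.86 with an adjusted p of 0.142 (exact permutation). As deviations from the group means, which removes any difference between EAE and treated mice, r was 0.98. Removing the means leaves fewer than 6 independent values, and no p-value is read from this r.

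The pairs with Tctex1d1 did not pass the threshold by either measure. With Dmkn it had r = 0.44 (exact permutation p = 0.394, adjusted 0.394) and rho 0.66 (exact permutation p = 0.175, adjusted 0.175), and without the 2 farthest libraries r was 0.55. With each library left out in turn r ran from 0.31 to 0.70, the highest without EAE replicate 3. With Tmem215 it had r = 0.56 (exact permutation p = 0.264, adjusted 0.394) and rho 0.94 (exact permutation p = 0.0167, adjusted 0.05), and r = 0.79 without the 2 farthest libraries. This rho was the highest of the 3 pairs. With each library left out in turn r ran from 0.43 to 0.90; it was 0.90 without EAE replicate 2 and 0.82 without EAE replicate 3. As deviations from the group means, r was 0.48 for Dmkn and Tctex1d1 and 0.29 for Tctex1d1 and Tmem215. In the plot of Dmkn and Tctex1d1, EAE replicate 3, the highest library for Tctex1d1, lay off the line of the others. For Tctex1d1 and Tmem215, leaving out EAE replicate 2 raised r more than leaving out EAE replicate 3. Whether the 3 correlations differ from one another was not tested.

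Many other genes had correlations as high in these 6 libraries. Of the 13016 other genes, 259 (1.99%) had a higher r with Dmkn than Tmem215 had, and 263 (2.02%) had a higher r with Tmem215 than Dmkn had. For Dmkn and Tctex1d1 these shares were 22% and 24.4%, and for Tctex1d1 and Tmem215 18% and 15.9%. The points share the authors' adjustment, which left 2 linear relations among the 9 libraries.

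**Figure D4:**
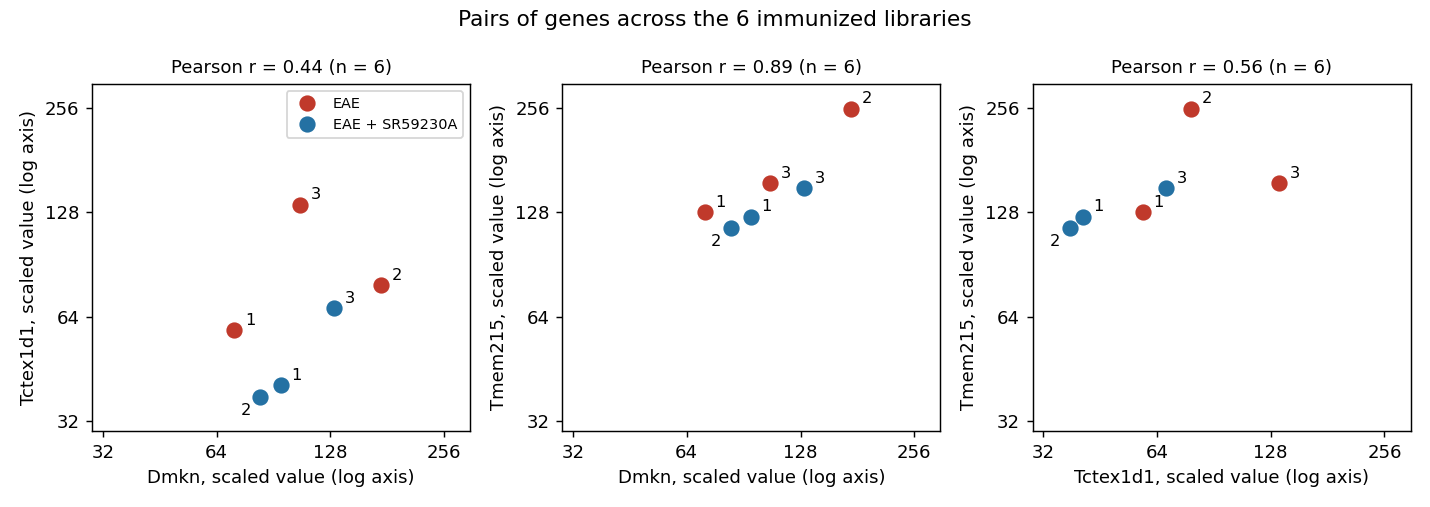
Scaled values of each pair of genes in the 6 immunized libraries, on log axes, with replicate numbers beside the points. Pearson r is 0.44 for Dmkn and Tctex1d1, 0.89 for Dmkn and Tmem215 and 0.56 for Tctex1d1 and Tmem215.

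Over all 9 libraries, which include the step from naive to immunized mice that chose the genes, those with the pattern most like Dmkn were Fcgr2b, an inhibitory Fc receptor, F13a1, a coagulation factor subunit made by monocytes, Ilf2, Hp, which encodes haptoglobin, and Elane, which encodes neutrophil elastase (r up to 0.997). Those most like Tctex1d1 were Cers6, a ceramide synthase (0.998), Dhx40 (0.996), Rab44 (0.994), Pgs1 and Atp8b4 (0.993). Those most like Tmem215 were Bzrap1 (0.997), Rrp1b, Elane (0.996), Gpc3 and Ilf2 (0.995). These are descriptions over 9 points: 433 genes had r of at least 0.95 with Dmkn, 311 with Tctex1d1 and 358 with Tmem215. Averaged over the 3 members, Gpc3, a glypican, came first (0.992), with means of 36.3, 223 and 189, followed by Hp (0.991), with 25.0, 383 and 322. Ms4a3 was also among the first 10 (0.990), as were Rab44, Snrpa1, Idh3a, Ilf2, Pgs1, Galnt6 and Plppr3.

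Over the 6 immunized libraries alone other genes led. For Dmkn these were Zfp597, Tead2 (0.995), Tceal8, Rpa2 (0.993) and Cwc15 (0.992), and 65 genes reached r = 0.95. For Tctex1d1 they were Fmr1 (0.997), 4930448K20Rik (0.993), Kcnj2 (0.991), Ppp2r3c and Ulbp1, among 82 genes at r = 0.95 or more. For Tmem215 they were Cnbp (0.998), Ppp1r13l (0.994), Sec61a1 (0.987), Zrsr2 and Mmab (0.986), among 64. None of these leading genes was shared between the 3 members.

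Genes of the cell types in which these 3 genes are otherwise known, and of granulocyte-monocyte progenitors, were counted beside the share of all tested genes. In EAE against naive mice 9.04% of tested genes were called higher and 5.07% lower (1177 and 660 genes). In treated against naive mice the shares were 10.2% and 4.58% (1324 and 596). The balance of directions depended on the scaling: with upper-quartile scaling 803 genes were called higher and 902 lower in EAE, and 833 and 949 in treated mice, and with no scaling 605 and 451, and 484 and 577. With no scaling the median of all genes in treated against naive mice was -0.11, in place of 0.01. The calls below are from limma-trend.

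Of 17 tested genes of granulocyte-monocyte progenitors, 16 rose in EAE and 16 in treated mice, with medians of 2.28 and 2.27 on the log2 scale, beside 0.00 and 0.01 over all genes. The list was chosen with earlier results of these data known, so its counts are a description and no test. With no scaling or upper-quartile scaling, 16 rose in EAE and 15 in treated mice. The summed level of the 17 genes was 4563 to 5483 in naive, 22181 to 27872 in EAE and 21817 to 23473 in treated libraries. The highest sum was in EAE replicate 2, the library highest for Dmkn and Tmem215. Tctex1d1 was highest in EAE replicate 3, which had the lowest sum of the EAE libraries (22181). EAE replicate 1, the lowest immunized library for Dmkn, had a higher sum than EAE replicate 3 (23370), so the match is of 1 library only. Ms4a3, Clec5a and Trem3 are both in this list and among the 16 switched-on genes. The part of these progenitors in the level of Dmkn, Tctex1d1 and Tmem215 was not tested, and in sorted bulk cells a change in the share of a cell type and a change in RNA per cell cannot be told apart.

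Keratinocytes, the cells best known for dermokine, were represented by 30 genes, of which 12 were in the table and 9 were tested. Tgm1, which encodes a transglutaminase of the cornified envelope, was the 1 that rose in EAE, from 16.6 ± 4.85 in naive to 65.3 ± 10.1 in EAE and 66.8 ± 8.05 in treated libraries (SD, n = 3 each), a difference of 1.94 ± 0.28 (SE). In treated against naive mice Tgm1 and Evpl, which encodes envoplakin, rose and Sfn, which encodes a 14-3-3 protein of epithelia, fell. With no scaling 1 rose and 0 fell there. The summed level of the list was 968 to 1037 in naive, 937 to 1019 in EAE and 1002 to 1116 in treated libraries, and its medians were -0.07 and 0.04. Pkp3, Krt18 and Sfn had the largest values (naive means 312, 294 and 236), so the sum shows little of Tgm1 and Evpl. Krt5 and Krt14, the keratins of the basal layer, and Sbsn and Krtdap, the neighbours of Dmkn, had no values in the table.

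For Tctex1d1 the lists were dynein and dynactin genes and genes of motile cilia. Of 24 tested dynein and dynactin genes 1 rose in EAE and 2 in treated mice, and 0 fell, with medians of 0.03 and -0.02. The 1 in EAE was Dctn3, a dynactin subunit, with 825 ± 23.2 in naive, 1079 ± 29.0 in EAE and 1133 ± 52.4 in treated libraries (SD, n = 3 each). With no scaling 0 genes of the list were called in either comparison, and with upper-quartile scaling 1 rose and 1 fell in each. Of the paralogs of Tctex1d1 with a Tctex1 domain, Dynlt3 and Tctex1d2 were in the table. Dynlt3 had 859 ± 56.9, 718 ± 76.6 and 725 ± 22.3 (difference -0.26 ± 0.11 in EAE, adjusted p = 0.13 by limma-trend), and Tctex1d2 had 190, 219 and 192 (difference 0.21 ± 0.13, adjusted p = 0.315 by limma-trend). Neither difference was called. Of 20 ciliated cell genes 6 were in the table and 5 were tested, and 0 were called in either comparison. Their summed level was 302 to 336 in naive, 321 to 351 in EAE and 292 to 311 in treated libraries.

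For Tmem215 the list was endothelial. Of its 14 genes, all tested, 0 rose and 7 fell in EAE, and 0 rose and 7 fell in treated mice, with medians of -0.69 and -0.62. The summed level was 6747 to 8137 in naive, 5802 to 6970 in EAE and 6768 to 7205 in treated libraries. Pecam1 alone, which was not called, averaged 2417 in naive, 2983 in EAE and 3276 in treated libraries. The sum therefore does not show the 7 genes that fell. Several genes of the list, such as Tek and Eng, are also expressed by blood-forming stem cells. The part of such cells in the 7 falls was not tested. Among 7 tested genes of the gate and of stem cells, Ly6a rose and Hlf, Mecom, Flt3 and Kit fell in EAE; with no scaling Ly6a was not called there. No gene of any of these lists was called between treated and EAE mice.

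**Figure D5:**
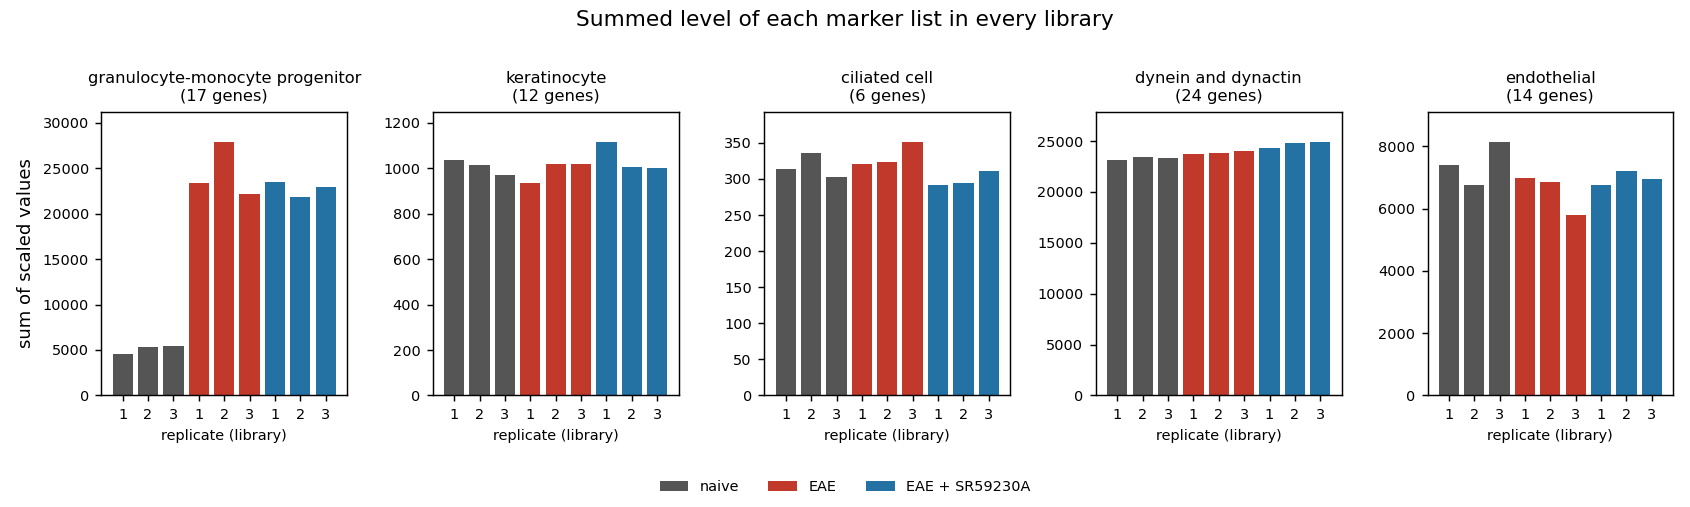
Summed scaled values of the marker lists in each library, with 1 bar per library, coloured by group and starting at 0. The granulocyte-monocyte progenitor sum is 4563 to 5483 in naive and 21817 to 27872 in immunized libraries. The keratinocyte sum lies between 937 and 1116, mostly from Pkp3, Krt18 and Sfn, and shows little of the rise in Tgm1. The ciliated cell sum lies between 292 and 351.

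The nearest genes on either side of each member, taken from the RefSeq gene order, gave 12 names, of which 3 were in the table. Ffar2, which encodes a receptor for short-chain fatty acids, is the second gene beyond Dmkn. It had scaled values of 98.3, 107 and 147 in naive, 498, 386 and 370 in EAE and 376, 389 and 356 in treated libraries. All 6 immunized values lay above the naive ones, and the difference was 1.83 ± 0.17 in EAE and 1.69 in treated mice, called in both by limma-trend. Its order among the immunized libraries was not that of Dmkn: EAE replicate 1 was the highest for Ffar2 and the lowest for Dmkn. Sgip1, the second gene before Tctex1d1, had 64.1 ± 10.5, 87.9 ± 6.61 and 70.7 ± 6.09 (difference 0.46 ± 0.20 in EAE, adjusted p = 0.162 by limma-trend). Aptx, the second gene after Tmem215, had 112 ± 10.1, 114 ± 8.80 and 113 ± 1.48 (difference 0.03 ± 0.16, adjusted p = 0.918 by limma-trend). Neither Sgip1 nor Aptx was called.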

How the data were processed

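RNA was measured in LSK cells of 9 mice, grouped by the labels' treatment fields. Replicates were numbered in accession order, so the numbers pair no mice. The labels' protocols name the RNeasy micro kit. The sources used here give no aligner, counting tool, build or annotation. DESeq2 appears in the submitters' processing notes, with neither version nor role. The authors deposited whole numbers, treated here as a score because their making is not described. Over 4577 genes (mean at least 500), 2 of the 8 components of ln(value + 1) were almost empty, with 6.7e-05% and 5.94e-05% of the variance, which independent counts cannot give. The spread between replicates may therefore be understated.

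Values were scaled by medians of ratios. The 13018 genes with a deposited value of at least 10 in 3 libraries were fitted as log2(value + 1), a scale that understates changes of low genes, with limma-trend (limma 3.58.1, R 4.3.3; 2-sided, Benjamini-Hochberg, threshold 0.05). The model held the 3 groups and the 2 missing directions (4 residual degrees of freedom) and was tested on simulated data. Alternatives were other scalings, pseudocounts and filters, other models and leaving out each library. GENCODE M21 gave exon lengths for 14132 symbols, and RefSeq the promoters and neighbour order.

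The members and lists were chosen with earlier results of these data known. Genes are named as follows: the members, their 5 most alike genes over 9 and over 6 libraries and 10 by the mean, up to 20 switched-on genes, 2 neighbours a side, paralogs, and called or abundant genes of the lists.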

Additional observations from a re-analysis of the deposited data

How the results depend on the processing

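The contrast of treated with EAE mice gave no call for Dmkn, Tctex1d1 or Tmem215 under any alternative run. The Dmkn difference was 0.21 without EAE replicate 2 and 0.02 without treated replicate 2 (range over left-out libraries -0.42 to 0.21). The cause was not tested.

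Counts of called genes moved with the model and scaling, and the cause was not tested. For EAE against naive mice there were 1837 calls, 1056 with no scaling, 3485 with group coefficients alone and 1242 to 2601 with a library left out. For treated against naive mice there were 1920, 1061 with no scaling, 3920 with group coefficients alone, 4442 with both groups alone and 1238 to 3324 with a library left out.

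For Dmkn and Tmem215 over the immunized libraries, r was 0.8601 with no scaling and 0.8853 with upper-quartile scaling, where the adjusted exact permutation p was 0.142 and 0.05. It was 0.7203 to 0.945 with a library left out, with adjusted p from 0.05 to 0.263 (exact permutation). The other pairs passed the threshold under no alternative. A ratio of 3 gave 31 switched-on genes and a ratio of 10 gave 4; leaving out a library, added after the values were seen, gave 16 to 22.

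Beside the 3 members, of 570 alternative values for 36 differences of 34 named genes, 543 kept direction and call and 17 changed direction. Aptx in EAE against naive mice was -0.04197 with upper-quartile scaling and -0.02209 to 0.1073 with a library left out. In treated against EAE mice, C4b was 0.0005216 with both groups alone, Ccl2 -0.03265 and Spsb1 -0.07333 with no scaling, and Spsb1 -0.007655 with upper-quartile scaling. With a library left out, C4b ran from -0.2635 to 0.1518, Ccl2 from -0.313 to 0.2865, Gm14005 from -0.3935 to 0.1446 and Spsb1 from -0.2071 to 0.1509. No paired analysis was possible because the labels carry no replicate numbers that pair mice across groups.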
